A study of Mus musculus with 12 samples.

Results

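The spinal cord response to the human SOD1G93A transgene was examined in mice without Plekhg5, by setting Plekhg5-/- SOD1G93A mice against Plekhg5-/- mice. These 6 libraries, 3 of each genotype, were chosen by the genotype in their labels from the 12 libraries of the series, which also holds 3 Plekhg5+/+ and 3 Plekhg5+/+ SOD1G93A mice. Each library was made from poly-A selected RNA of the whole spinal cord of a mouse aged 7 months, and both genotypes compared lack Plekhg5. The background strain was C57BL/6, and the study did not take sex into account. Copy number and strain of the transgene were not used here. The whole tissue was sequenced, so that fewer cells of a type and less RNA per cell cannot be told apart in any result given here.

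SOD1G93A is a mutant form of the human enzyme superoxide dismutase 1 that causes amyotrophic lateral sclerosis, and mice that carry it lose motoneurons. In the spinal cord of such mice, microglia pass from a homeostatic state, marked by receptors such as P2ry12, to a phagocytic, lipid-handling state called disease-associated, marked by Cst7, Itgax and Gpnmb, while astrocytes gain intermediate filaments and secreted acute-phase proteins. Plekhg5 is a guanine exchange factor for the small GTPase Rab26 and acts in the autophagy of synaptic vesicles and in unconventional secretion. The comparison asks what the transgene changes in the cord when this factor is missing.

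The 6 libraries held 31573658 to 38743628 counts. Of the 45906 genes in the table, 20155 passed the filter on low counts and were tested. Levels are given throughout as CPM, the count of a gene scaled to library size after TMM normalization. Y-linked transcripts were found in 2 of the 3 Plekhg5-/- libraries and in 1 of the 3 Plekhg5-/- SOD1G93A libraries. Skeletal muscle transcripts (Acta1, Ckm, Myh4 and Tnnt3) summed to 5.21 to 38.1 CPM in Plekhg5-/- and 2.34 to 27.7 CPM in Plekhg5-/- SOD1G93A libraries, and were highest in the replicate 2 library of both genotypes. The tissue label was met by its defining genes: the astrocyte filament Gfap lay between 1651 and 2479 CPM and the motoneuron enzyme Chat between 25.3 and 31.5 CPM in all 6 libraries.

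Human SOD1, the transgene itself, was at 5002, 4904 and 5098 CPM in the Plekhg5-/- SOD1G93A libraries and at 5.47, 0.994 and 1.45 CPM in the Plekhg5-/- libraries. The groups were far apart, and the transgene was the only gene to pass an adjusted p under 0.05 in edgeR (log2 fold change 10.87, SE 0.64, adjusted p = 0.000343). Its level in Plekhg5+/+ SOD1G93A mice was 4993 ± 612 CPM (SD, n = 3), against 5001 ± 97.1 CPM (SD, n = 3) without Plekhg5. Plekhg5 (chromosome 4 from 152072433 to 152115404, GRCm38.p6) was at 3.28, 3.98 and 4.70 CPM in Plekhg5-/- and at 4.72, 3.92 and 4.14 CPM in Plekhg5-/- SOD1G93A libraries. All 6 values lay under those of the 6 libraries with Plekhg5, which averaged 22.9 ± 3.08 CPM without and 22.4 ± 2.19 CPM with the transgene (SD, n = 3 each), as the labels require. The endogenous mouse Sod1 overlapped between the groups, with 162 ± 21.5 CPM in Plekhg5-/- and 155 ± 0.249 CPM in Plekhg5-/- SOD1G93A mice (SD, n = 3 each).

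Beyond the transgene, no gene passed the threshold in edgeR: 1 of 20155 tested genes was called (0.00496%), and the next smallest adjusted p was 0.214. At an unadjusted p under 0.05, edgeR had 1084 genes (5.38%), 660 of them higher with the transgene (3.27%) and 424 lower with it (2.1%). The median log2 fold change over all tested genes was -0.0049, and 48.3% of them were positive. Large differences lay mostly on one side, since 225 of the 287 genes with an absolute log2 fold change over 1 were higher. In 1461 genes (7.25%) every Plekhg5-/- SOD1G93A library lay above every Plekhg5-/- library, and in 1053 genes (5.22%) every one lay below.

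The number of calls depended on the tool and on the libraries fitted. DESeq2 with a prior on fold changes, the tool of the study, called 41 of 22163 genes (0.185%), of which 34 were higher (0.153%) and 7 lower (0.0316%). These include the basement membrane and matrix genes Lama2, Lamb1, Hspg2, Emilin1, Mfap5, Tgfbi and Igfbp7 and the Schwann cell genes Dhh and Ncmap, all higher. An edgeR fit of the 6 libraries alone called 20 genes, the transgene included and all higher, among them the microglial genes Gpnmb, Itgax, Cst7, Ccl3 and Lyz2 and the Schwann cell genes Pmp2, Egr2, Dhh and Cldn19. Genes below are therefore described by their values and by whether the libraries overlap. Counts without overlap are to be read beside the shares over all genes, 7.25% higher and 5.22% lower. An edgeR adjusted p in the fit of all 12 libraries is given for some single genes. It was 0.214 or more for every gene other than the transgene.

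The 11 genes other than the transgene with the smallest p among those that did not overlap include collagens, genes of macrophages and a gene of Schwann cells. Col1a1, the main fibrillar collagen, was at 11.4, 20.2 and 14.8 CPM in Plekhg5-/- and at 33.4, 37.1 and 32.2 CPM in Plekhg5-/- SOD1G93A mice. All mice with the transgene were well above those without (log2 fold change 1.15, SE 0.19, edgeR adjusted p = 0.214), and DESeq2 with the prior gave an adjusted p of 2e-05. Col28a1, a collagen of peripheral nerve, was at 0.410, 0.934 and 0.663 CPM against 3.61, 3.86 and 3.50 CPM with the transgene (log2 fold change 2.45, SE 0.47). Atp6v0d2, a subunit of the proton pump that acidifies lysosomes and is found in osteoclasts and macrophages, was at 0.0585, 0.181 and 0.126 CPM without and at 0.894, 1.18 and 0.647 CPM with the transgene. The groups did not overlap (log2 fold change 2.86, SE 0.47, edgeR adjusted p = 0.214), but this gene passed the filter on low counts through the mice with the transgene, so its fold change is given as a value and not as support. On the Plekhg5+/+ background it was at 0 to 0.0612 CPM without and 0.390 to 0.901 CPM with the transgene. Mmp12, the macrophage elastase, was at 0.380, 0.211 and 0.379 CPM against 1.76, 1.58 and 1.27 CPM. Mmp12 too passed the filter on low counts through the mice with the transgene, so its values are not taken as support.

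Gldn, or gliomedin, which Schwann cells use to assemble nodes of Ranvier, was at 2.63, 3.43 and 4.07 CPM without and at 6.51, 6.22 and 7.46 CPM with the transgene. Plekha4, which encodes a protein with a pleckstrin homology domain, was at 6.44, 6.45 and 9.02 CPM against 24.2, 23.2 and 26.8 CPM (log2 fold change 1.76, SE 0.30). On the Plekhg5+/+ background it was at 18.5, 20.4 and 7.47 CPM without and at 9.97, 12.1 and 13.2 CPM with the transgene. The remaining named higher genes were Sostdc1, a secreted antagonist of BMP and Wnt signalling (1.21), the cytokine Il16 (1.01), the mitochondrial carrier Slc25a24 (0.75), Sbspon (1.86) and the small nucleolar RNA Snora81 (1.46), each with its log2 fold change. In all of them the groups did not overlap, and DESeq2 with the prior called every one. In Plekhg5+/+ mice Sbspon was at 1.91, 2.36 and 0.949 CPM without and at 0.683, 2.01 and 1.29 CPM with the transgene. There Il16 was at 6.64, 7.55 and 3.92 CPM without and at 6.06, 5.31 and 6.78 CPM with it. The plot of the named genes by library shows that the mice of a group lay close together in most of them.

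**Figure D1:**
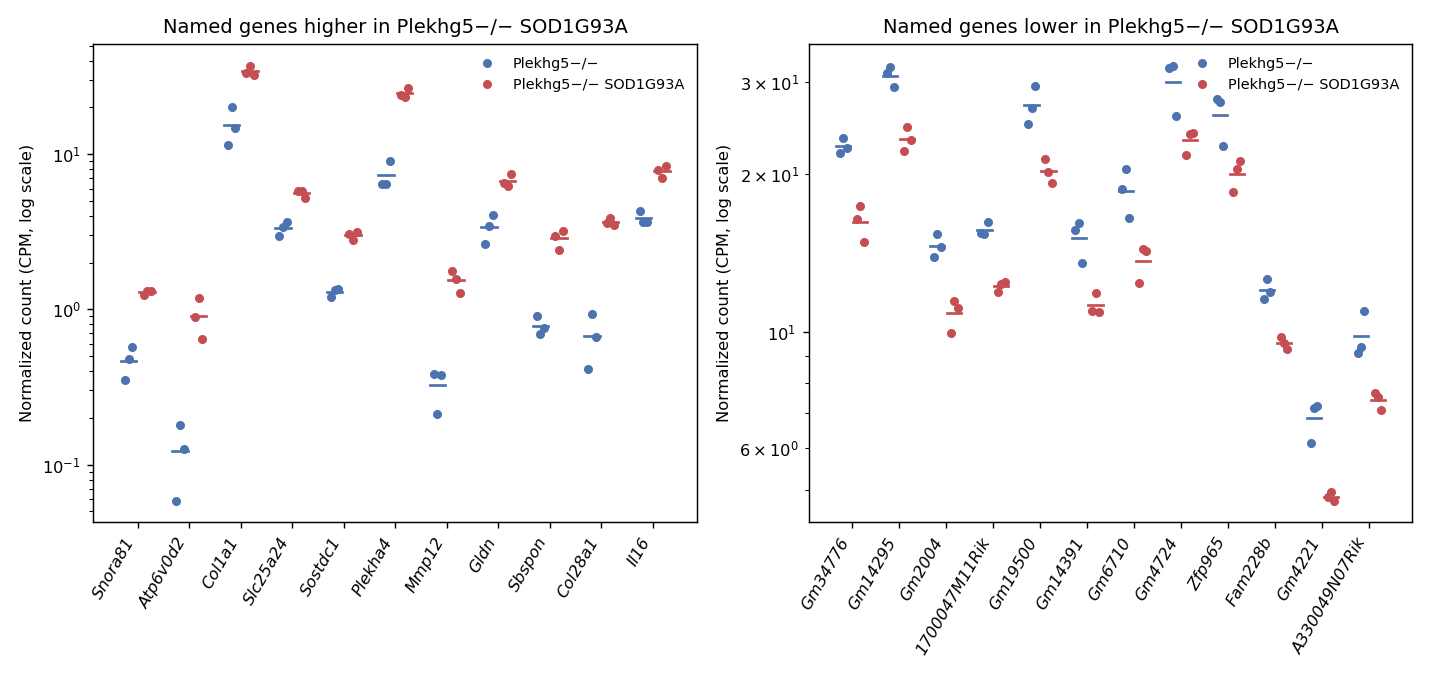
Normalized counts (CPM, log scale) of the 11 named higher genes other than the transgene (left) and the 12 named lower genes (right) in the 3 Plekhg5-/- (blue) and 3 Plekhg5-/- SOD1G93A libraries (red). Points are libraries and bars group means; the groups do not overlap in any gene shown, since the genes were chosen so, and the differences are larger on the left (Col1a1, 15.5 against 34.2 CPM) than on the right (Gm34776, 22.6 against 16.2 CPM).

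Among the lower genes the differences were small and uniform. Gm34776, a long non-coding RNA on chromosome 10 from 72939935 to 72973165 (GRCm38.p6), was at 21.9, 23.4 and 22.4 CPM in Plekhg5-/- and at 16.4, 17.4 and 14.8 CPM in Plekhg5-/- SOD1G93A mice. It had the smallest p of the lower genes (log2 fold change -0.48, SE 0.08, edgeR adjusted p = 0.214; DESeq2 with the prior, adjusted p = 0.00031). On the Plekhg5+/+ background it was on the other side, at 0.21, and the difference between the backgrounds missed the threshold (edgeR interaction, adjusted p = 0.24). The named genes 1700047M11Rik, Gm19500, Fam228b, Gm4221 and A330049N07Rik had log2 fold changes of -0.36, -0.42, -0.34, -0.50 and -0.40.

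Of the 12 named lower genes, 6 lay within 1 cluster on chromosome 2 from 175185165 to 176814092, which holds closely related zinc finger genes: Gm14391, Gm4724, Zfp965, Gm6710, Gm2004 and Gm14295. Gm14295 was at 31.2, 32.1 and 29.3 CPM without and at 22.2, 24.6 and 23.2 CPM with the transgene (log2 fold change -0.40, SE 0.07). On the Plekhg5+/+ background it was at 27.7, 25.5 and 26.4 CPM without and at 24.0, 25.6 and 22.1 CPM with the transgene. All 23 tested genes of the cluster were lower, 19 of them with no overlap between the groups, with a median log2 fold change of -0.37 and a range of -0.45 to -0.09. The span was drawn from the outermost of the 6 named genes, so 6 of the 19 were lower without overlap by choice. All 23 genes had fractional counts in 10 or more of the 12 libraries, which means that reads were shared between copies, so the genes are not separate measurements and the member of origin is uncertain.

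Some of the copies also share their promoters, given here as 250 bases before to 50 after the start in RefSeq for GRCm38.p6. Of the 18 cluster genes with a promoter in that table, 6 fell into 2 sets with an identical promoter. The sequence of Gm4724 (chr2:175435728-175436027, minus strand), shown because it is shared base for base with Gm14308, Gm14434 and Gm2026, is printed in lower case.
Gm4724: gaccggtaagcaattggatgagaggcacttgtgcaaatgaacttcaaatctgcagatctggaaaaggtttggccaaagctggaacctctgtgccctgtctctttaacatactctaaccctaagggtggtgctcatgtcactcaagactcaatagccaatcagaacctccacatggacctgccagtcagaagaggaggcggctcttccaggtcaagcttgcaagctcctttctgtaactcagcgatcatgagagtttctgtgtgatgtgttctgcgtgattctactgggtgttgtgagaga
Gm14288 matched it at 94.7% of its bases, compared position by position without gaps. The other promoters, those of Gm14391, Zfp965, Gm6710, Gm2004 and Gm14295 among them, matched it at 23.7% to 29.3%. A comparison without gaps cannot tell unlike promoters from copies whose start is shifted, so their likeness was not settled.

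Schwann cell markers, which belong to peripheral nerve and reach cord tissue with the nerve roots, had the highest median of the 46 gene lists. All 6 markers listed (Prx, Pmp2, Ncmap, Cldn19, Egr2 and Drp2) were higher in Plekhg5-/- SOD1G93A mice without overlap, where 7.25% of all genes were, and the median log2 fold change was 1.76 against -0.0049 over all genes. Prx, or periaxin, a scaffold protein of peripheral myelin, was at 11.1, 13.5 and 22.1 CPM in Plekhg5-/- and at 61.3, 46.8 and 73.0 CPM in Plekhg5-/- SOD1G93A mice. Its lowest value with the transgene was therefore well above the highest without (log2 fold change 1.96, SE 0.52, edgeR adjusted p = 0.617). Pmp2, a lipid-binding protein of the same myelin, had the largest log2 fold change of the list (2.76, SE 0.69) and Drp2 the smallest (0.63, SE 0.16). DESeq2 with the prior called 1 of the 6, Ncmap.

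The same markers also varied among mice with Plekhg5. Prx was at 49.9, 52.4 and 14.2 CPM in Plekhg5+/+ and at 12.3, 31.2 and 26.5 CPM in Plekhg5+/+ SOD1G93A mice, and the summed level of the 6 markers ranged from 84.9 to 185 CPM and from 89.8 to 128 CPM. On that background 0 of the 6 markers were higher without overlap, with a median log2 fold change of -0.33. The summed level was 75.4 to 102 CPM in Plekhg5-/- and 165 to 216 CPM in Plekhg5-/- SOD1G93A mice. Drp2, with the smallest fold change of the list, was the largest part of these sums. It was at 55.8, 65.2 and 68.1 CPM in Plekhg5-/- and at 92.5, 90.6 and 109 CPM in Plekhg5-/- SOD1G93A mice. In 5 of the 6 markers the difference between backgrounds had an unadjusted interaction p under 0.05 in edgeR (9.05% of all genes), and the smallest adjusted p was 0.338. The median stayed between 1.56 and 1.94 when each of the 6 libraries was left out.

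Markers of meninges and fibroblasts were on the higher side too, but did not follow the Schwann cell markers library by library. All 6 were higher, 2 without overlap, with a median log2 fold change of 0.86, and their summed level was 141 to 242 CPM in Plekhg5-/- and 225 to 399 CPM in Plekhg5-/- SOD1G93A mice. Col1a2, the partner chain of Col1a1, was at 41.0, 53.2 and 37.1 CPM without and at 72.1, 82.3 and 75.3 CPM with the transgene. Dcn, a small proteoglycan of connective tissue, overlapped narrowly, with 43.8, 69.6 and 42.5 CPM against 67.8, 121 and 107 CPM. Of 19 tested genes of collagens and matrix, 10 were higher without overlap and 8 had an unadjusted p under 0.05 on the higher side, with a median of 0.41. The protease inhibitors Timp3 (log2 fold change 0.33) and Timp1 (1.41) and the collagen Col12a1 (0.65) were among the 10. Mmp12, described above and not taken as support, is among them too. The part of root and meningeal tissue in these matrix differences, and in Col1a1, Col28a1, Gldn, Plekha4, Sbspon and Il16, was not tested.

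**Figure D2:**
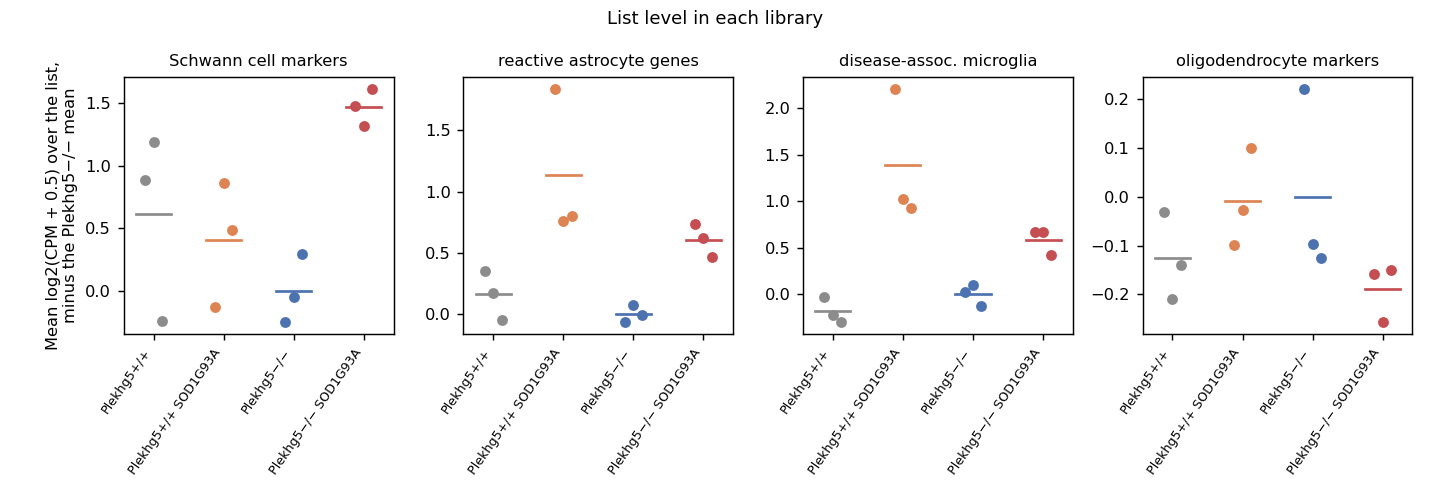
Mean log2(CPM + 0.5) over the genes of 4 lists, minus the mean of the Plekhg5-/- libraries (y axis, a panel for each list) in each library of the 4 genotypes (x axis); points are libraries and bars group means. The 3 Plekhg5-/- SOD1G93A libraries (red) lie above the 3 Plekhg5-/- libraries (blue) in the Schwann cell, reactive astrocyte and disease-associated microglia panels and below them in the oligodendrocyte panel, and the replicate 1 library of Plekhg5+/+ SOD1G93A lies apart in the reactive astrocyte and disease-associated microglia panels.

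Most genes of disease-associated microglia had higher values with the transgene. Of 20 genes, 19 were higher, 12 of them without overlap, and 6 had an unadjusted p under 0.05 on the higher side, with a median log2 fold change of 0.39. Gpnmb, a glycoprotein of phagocytes loaded with lipid, was at 5.71, 5.27 and 3.57 CPM in Plekhg5-/- and at 20.6, 21.9 and 13.8 CPM in Plekhg5-/- SOD1G93A mice (log2 fold change 1.94, SE 0.43, edgeR adjusted p = 0.455). Cst7, an inhibitor of lysosomal cathepsins, was at 0.410, 0.422 and 0.883 CPM against 2.96, 3.46 and 2.23 CPM (2.33, SE 0.75). The groups were separate in both genes. Cd68, a lysosomal protein of phagocytes, was at 10.4, 10.2 and 7.73 CPM against 18.1, 16.4 and 12.7 CPM. Outside the rule for naming genes, the integrin Itgax (1.66), the receptor Clec7a (1.40) and Trem2, which senses lipids (0.37), were looked up after their values were seen; none of the 3 overlapped between the groups. Apoe, the main lipid carrier of the brain and the most abundant gene of the list, overlapped at 1242 ± 137 and 1369 ± 41.3 CPM (SD, n = 3 each).

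The promoters of 4 of these macrophage and microglial genes are shown because each holds the letters TGANTCA (N is any base), set in capitals. This motif takes in TGACTCA and TGAGTCA, the usual core recognized by AP-1 factors such as Fos and Jun. It is wider than that core, as in Cst7 (TGATTCA), and the shares given below count every middle base. The promoters come from RefSeq for GRCm38.p6 and cover 300 bases each. As a pattern the motif reads the same on both strands, and it was chosen with the values known.
Gpnmb (chr6:49036268-49036567, plus strand): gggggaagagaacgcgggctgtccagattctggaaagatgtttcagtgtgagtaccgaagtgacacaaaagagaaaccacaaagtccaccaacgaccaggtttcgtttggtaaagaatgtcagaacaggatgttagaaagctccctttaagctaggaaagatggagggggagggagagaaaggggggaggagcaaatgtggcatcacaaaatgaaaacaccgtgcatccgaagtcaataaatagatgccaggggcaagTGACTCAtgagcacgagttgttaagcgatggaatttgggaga
Cst7 (chr2:150570165-150570464, plus strand): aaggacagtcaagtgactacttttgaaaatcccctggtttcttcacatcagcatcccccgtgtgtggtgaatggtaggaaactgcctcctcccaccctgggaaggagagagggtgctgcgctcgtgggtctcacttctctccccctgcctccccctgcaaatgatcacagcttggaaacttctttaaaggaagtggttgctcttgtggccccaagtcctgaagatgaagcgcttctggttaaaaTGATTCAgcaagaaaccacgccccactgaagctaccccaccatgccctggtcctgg
Itgax (chr7:128129300-128129599, plus strand): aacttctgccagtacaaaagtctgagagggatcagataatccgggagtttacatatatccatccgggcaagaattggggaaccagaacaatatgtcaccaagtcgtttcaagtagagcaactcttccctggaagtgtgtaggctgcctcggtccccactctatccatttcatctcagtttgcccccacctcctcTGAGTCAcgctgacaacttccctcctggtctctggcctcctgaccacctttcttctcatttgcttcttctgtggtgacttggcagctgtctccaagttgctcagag
Mmp12 (chr9:7347124-7347423, plus strand, 1 of 2 listed): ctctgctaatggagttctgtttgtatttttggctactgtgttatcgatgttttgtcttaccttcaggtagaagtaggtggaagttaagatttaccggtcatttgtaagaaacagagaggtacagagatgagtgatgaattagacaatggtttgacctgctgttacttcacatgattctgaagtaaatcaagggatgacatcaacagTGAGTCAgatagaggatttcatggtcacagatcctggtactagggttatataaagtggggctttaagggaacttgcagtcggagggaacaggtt
The first base of the motif lies 8 bases after the start in Gpnmb and 6, 56 and 44 bases before it in Cst7, Itgax and Mmp12. Of 17 disease-associated microglia genes with a promoter in the table, 6 hold it, in 28.6% of their 21 promoters, against 7.81% of all 32851 promoters and 5.56% of those of the tested genes. A match is a description of the letters and not evidence of binding. Counts of Itgax were fractional in 9 of the 12 libraries, which shows reads divided among overlapping or similar genes.

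Broad microglial markers differed less. All 14 (Csf1r, Aif1, C1qa and others) were higher, but 4 without overlap and 0 with an edgeR unadjusted p under 0.05, with a median log2 fold change of 0.28 (0.42 without Plekhg5-/- replicate 1), and their summed level was 653 to 882 CPM against 845 to 961 CPM. Homeostatic genes had a median of 0.03, which lay between -0.11 and 0.18 as each library was left out. P2ry12, looked up after its values were seen, overlapped at 47.3, 36.9 and 31.1 CPM and 35.6, 34.0 and 38.1 CPM, and Cx3cr1, the fractalkine receptor, overlapped too (log2 fold change 0.20). The 2 of 10 homeostatic genes without overlap were Fcrls (0.96) and Olfml3 (0.43), both higher, where 7.25% of all genes were. In Plekhg5+/+ mice the 14 markers had a median of 1.38 with the transgene, and 0.95 without the replicate 1 library of Plekhg5+/+ SOD1G93A, in which their levels were highest.

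Among secreted and surface immune proteins the differences were on the higher side in most lists. Of 14 tested chemokines, 13 were higher and 7 did not overlap, with a median of 0.55. Ccl3, which attracts monocytes, was at 0.644, 0.422 and 0.379 CPM in Plekhg5-/- and at 1.79, 1.76 and 1.63 CPM in Plekhg5-/- SOD1G93A mice (log2 fold change 1.83, SE 0.44, edgeR adjusted p = 0.455). The monocyte attractant Ccl2 (1.21) and Ccl9 (0.53) were higher without overlap as well. Ccl2 was at 0.205, 0.241 and 0.158 CPM in Plekhg5-/- mice and passed the filter on low counts through the mice with the transgene. It counts among the 7 but is not taken as support. Of 15 complement genes, 14 were higher and 6 did not overlap, with a median of 0.41. The central component C3 (0.41) and the receptor C3ar1 (0.95) did not overlap, and C1s1, a protease of the classical pathway, did (0.91).

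All 15 Toll-like receptors and adaptors were higher, 5 of them without overlap, with a median of 0.30 and 0 at an edgeR unadjusted p under 0.05. Tlr2, a receptor for lipoproteins of microbes and for danger signals, was at 5.94, 5.45 and 5.93 CPM in Plekhg5-/- and at 7.19, 7.01 and 6.78 CPM in Plekhg5-/- SOD1G93A mice. The groups were separate, by a log2 fold change of 0.28 (SE 0.23), and Tlr4, the receptor for bacterial lipopolysaccharide, was also separate (0.49, SE 0.24). Of 13 cytokine and inflammasome genes, 6 were higher and 1 lower without overlap, with a median of 0.31. The interleukin 1 receptor Il1r1 (log2 fold change 0.62) and the growth factor Tgfb1 (0.59) were among them. The antagonist of that receptor, Il1rn, was at 0.0878, 0.151 and 0.221 CPM against 0.863, 0.577 and 0.492 CPM. It passed the filter on low counts through the mice with the transgene, so its value is not taken as support. Il1rn is nevertheless 1 of the 6 and enters the median. The list median was 0.21 without Plekhg5-/- SOD1G93A replicate 1 and 0.49 without replicate 3. The 7 genes of the phagocyte NADPH oxidase, which makes superoxide, were all higher, 4 without overlap, with a median of 0.41, and its membrane subunits Cybb (1.32) and Cyba (0.54) were among the 4. Without Plekhg5-/- SOD1G93A replicate 1 that median was 0.26.

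Genes of antigen presentation had higher values with the transgene in most cases, and 3 of them, all of class II, had an unadjusted p under 0.05. Of 7 genes of MHC class II presentation, which activated microglia and macrophages use, all were above 0 and 4 did not overlap, with a median of 0.64, against 0.49 on the Plekhg5+/+ background. The invariant chain Cd74 was at 9.30, 13.4 and 8.93 CPM in Plekhg5-/- and at 14.7, 20.0 and 19.6 CPM in Plekhg5-/- SOD1G93A mice, and H2-Aa had a log2 fold change of 0.64 (SE 0.23). Of 12 genes of MHC class I presentation, 7 did not overlap, with a median of 0.24 and 0 at an edgeR unadjusted p under 0.05. B2m, the light chain of class I molecules, was at 117, 119 and 112 CPM against 142, 155 and 139 CPM. Interferon-stimulated genes had a median of 0.41, with 19 of 20 higher, 6 without overlap and 0 at an edgeR unadjusted p under 0.05, and the median was 0.27 without Plekhg5-/- SOD1G93A replicate 2. Of 25 lysosomal genes, 9 were higher without overlap, against 7.25% of all genes, with a median of 0.16. Atp6v0d2, described above and not taken as support, is among the 9. Ctsd, the most abundant cathepsin here, was at 542 ± 28.8 and 712 ± 70.2 CPM (SD, n = 3 each).

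T cell transcripts were near the floor of detection. Of 9 markers, 4 passed the filter on low counts, and only Cd8a of these was higher without overlap, at 0.0293, 0.0603 and 0.0947 CPM in Plekhg5-/- and 0.617, 1.21 and 0.181 CPM in Plekhg5-/- SOD1G93A mice. The replicate 3 mouse of the latter was close to the mice without the transgene. The T cell coreceptor Cd4 overlapped, at 0.176, 0.181 and 0.0947 CPM against 0.555, 1.27 and 0.155 CPM. A filter on low counts passes such genes through the group where they are high, so the 4 are not counted as support for a difference.

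Reactive astrocyte genes had higher values with the transgene throughout the list. All 17 were higher and 14 did not overlap, with a median of 0.65 that stayed between 0.60 and 0.70 as each of the 6 libraries was left out. Vim, an intermediate filament, was at 104, 112 and 92.8 CPM in Plekhg5-/- and at 160, 178 and 161 CPM in Plekhg5-/- SOD1G93A mice (log2 fold change 0.69, SE 0.25, edgeR adjusted p = 0.833). Emp1, a membrane protein, was at 8.87, 10.6 and 9.75 CPM against 15.5, 16.2 and 14.3 CPM. The copper protein Cp (0.63), the protease inhibitor Timp1 (1.41) and, looked up after the values were seen, the serpin Serpina3n (0.65) did not overlap. Gfap, the classic filament of the state, overlapped: it was at 2479, 1920 and 1651 CPM without and at 2336, 2363 and 2300 CPM with the transgene (log2 fold change 0.21, SE 0.22). The replicate 1 library of Plekhg5-/- lay above all mice with the transgene. General astrocyte markers such as the glutamate transporters had a median of 0.01, with 5 of 10 above and 5 below 0.

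Genes of the unfolded protein and integrated stress response were slightly higher. Of 19 genes, 16 were higher, 5 of them without overlap, against 7.25% of all genes. The median was 0.16, which stayed between 0.12 and 0.23 as each library was left out. Atf3, a stress factor that also marks injured motoneurons and dorsal root neurons, was at 1.40, 1.48 and 2.43 CPM in Plekhg5-/- and at 6.91, 5.22 and 5.02 CPM in Plekhg5-/- SOD1G93A mice. It was 1.69 higher on the log2 scale (SE 0.39, edgeR adjusted p = 0.455; DESeq2 with the prior, adjusted p = 0.034), and 1.64 higher on the Plekhg5+/+ background, so that this gene had nearly the same value on both (edgeR interaction, adjusted p = 0.98). The 95% confidence interval of the first value was 0.84 to 2.55. The endoplasmic reticulum chaperone Hsp90b1 was at 415, 423 and 420 CPM against 554, 566 and 464 CPM. On the Plekhg5+/+ background it was lower with the transgene (-0.35, edgeR interaction adjusted p = 0.338), at 660, 569 and 493 CPM without and 477, 476 and 397 CPM with it. The Plekhg5+/+ controls stood high over the whole stress list. Their mean log2(CPM + 0.5), relative to the Plekhg5-/- mean, was 0.55, 0.36 and 0.067, against 0.11 to 0.32 in Plekhg5+/+ SOD1G93A mice. Hspa5 overlapped (0.33), Hyou1 overlapped (0.22) and Trib3 did not (0.85). Cytosolic heat shock proteins had a median of 0.12, with 5 of 15 higher without overlap, against -0.38 on the Plekhg5+/+ background. The latter goes with the Plekhg5+/+ controls, whose mean log2(CPM + 0.5) over the list, relative to the Plekhg5-/- mean, was 1.10, 0.77 and 0.16, while the Plekhg5+/+ SOD1G93A mice lay between -0.021 and 0.072.

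Other axon injury genes did not share the level of Atf3. The list of 16 had a median of 0.07 and 3 genes without overlap on the higher side, against 7.25% of all genes. Vgf, a secreted neuropeptide precursor, was at 105, 117 and 116 CPM in Plekhg5-/- and at 173, 122 and 126 CPM in Plekhg5-/- SOD1G93A mice, and the first of these stood apart from its group. Sprr1a, a gene of regenerating neurons, overlapped (1.09, SE 0.43).

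Most endothelial and vascular genes had higher values with the transgene when Plekhg5 was absent. Angpt2, the antagonist of the Tie2 receptor that loosens vessels, was at 1.08, 1.33 and 1.29 CPM in Plekhg5-/- and at 2.41, 2.19 and 2.10 CPM in Plekhg5-/- SOD1G93A mice (log2 fold change 0.85, SE 0.18, edgeR adjusted p = 0.344). On the Plekhg5+/+ background its log2 fold change was -0.90, and the difference between the backgrounds had an edgeR unadjusted interaction p of 1.26e-05 and an adjusted p of 0.235. Vwf, the clotting factor of endothelium, was at 14.4, 17.6 and 20.1 CPM against 50.6, 36.8 and 30.2 CPM. The adhesion protein Cdh5 (0.51) and the transcription factor Sox18 (0.50) did not overlap. The vascular list had a median of 0.22, with 6 of 14 higher without overlap, against -0.29 on the Plekhg5+/+ background. On the latter the Plekhg5+/+ controls stood apart in replicates 1 and 2, with a mean log2(CPM + 0.5) over the list, relative to the Plekhg5-/- mean, of 0.37, 0.41 and 0.070, against -0.036 to 0.092 with the transgene. Of 8 general endothelial markers, 7 were higher with a median of 0.32, and their summed level was 206 to 279 CPM against 260 to 304 CPM. The endothelial median was 0.12 without Plekhg5-/- replicate 1 and 0.57 without Plekhg5-/- replicate 3. The part of vessel content in these values was not tested.

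Neuronal genes differed little. Of 10 motoneuron markers, 1 was lower without overlap, a share near the 5.22% of all genes. It was Chodl, a marker of fast motoneurons, at 41.5, 38.7 and 44.0 CPM in Plekhg5-/- and 34.3, 20.7 and 30.9 CPM in Plekhg5-/- SOD1G93A mice (log2 fold change -0.53, SE 0.18, edgeR adjusted p = 0.773). Chat, the enzyme that makes acetylcholine, overlapped at 31.5, 28.3 and 31.0 CPM and 31.5, 25.3 and 29.7 CPM. The motoneuron list had a median of -0.05 without Plekhg5 and -0.25 with it, and the first value lay between -0.13 and 0.10 as each library was left out. Nefl, the light neurofilament of axons, had a log2 fold change of -0.14 (SE 0.09) and its list a median of -0.05. Synaptic vesicle genes had a median of 0.04.

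Oligodendrocyte markers were all lower. All 10 had a negative log2 fold change, 2 did not overlap (5.22% of all genes were lower in that way) and 4 had an unadjusted p under 0.05, with a median of -0.19. Opalin, a glycoprotein of central myelin, was at 48.2, 42.7 and 48.9 CPM in Plekhg5-/- and at 39.5, 31.5 and 39.5 CPM in Plekhg5-/- SOD1G93A mice. Opalin thus had a log2 fold change of -0.34 (SE 0.13) here and 0.76 on the Plekhg5+/+ background (edgeR interaction, adjusted p = 0.329). On the latter it was at 24.4, 24.6 and 35.7 CPM without and at 49.4, 48.8 and 45.8 CPM with the transgene. The Plekhg5+/+ controls were thus the low group, and Plekhg5+/+ SOD1G93A mice lay near the Plekhg5-/- mice. Cnp, an enzyme of myelin, was at 1164, 882 and 909 CPM against 852, 786 and 854 CPM, and Mag, an adhesion protein of the innermost myelin layer, overlapped (-0.21). In both genes the replicate 1 library of Plekhg5-/- was the highest. The list median stayed between -0.26 and -0.08 as each library was left out. Genes of sterol synthesis, on which myelin depends, had a median of -0.14, with 18 of 20 lower. Of these, 4 did not overlap, against 5.22% of all genes, among them Mvk (-0.28) and Fdps (-0.25). Without Plekhg5-/- SOD1G93A replicate 2 that median was -0.084.

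Genes of the pathway in which Plekhg5 itself acts had a median near 0. Rab26, its GTPase target on synaptic vesicles, was at 6.41, 6.72 and 6.41 CPM in Plekhg5-/- and at 5.80, 5.37 and 4.58 CPM in Plekhg5-/- SOD1G93A mice (log2 fold change -0.31, SE 0.11, edgeR adjusted p = 0.813). It was the 1 of 21 secretory autophagy genes without overlap, a share near the 5.22% of all genes that were lower in that way. The list had a median of 0.01. Core autophagy genes lay in a narrow range of -0.13 to 0.07 with a median of -0.02. Genes of oxidative phosphorylation had a median of -0.13, with 25 of 26 lower and 2 without overlap, against 5.22% of all genes, and proteasome subunits one of -0.10. Both medians moved with Plekhg5-/- replicate 1, the highest library of its group in both lists, and were -0.027 and -0.014 without it. Nrf2 targets of the oxidative stress response had a median of 0.01, and the 26 genes linked to amyotrophic lateral sclerosis had 13 above and 13 below 0.

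Of the remaining lists, proliferation genes had a median of 0.44, with 15 of 16 higher and 4 without overlap. The proliferation marker Mki67 was at 3.34, 1.72 and 3.60 CPM in Plekhg5-/- and at 14.4, 5.40 and 3.70 CPM in Plekhg5-/- SOD1G93A mice. The high value was that of the replicate 1 mouse, and the list median ranged from 0.22 to 0.57 as each library was left out. Genes of lipid uptake and storage had a median of -0.0039, with the scavenger receptor Msr1 higher without overlap (1.14, SE 0.35). Immediate early genes other than Egr2, which is also a Schwann cell gene, all overlapped, as did all 13 glucocorticoid-responsive genes.

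**Figure D3:**
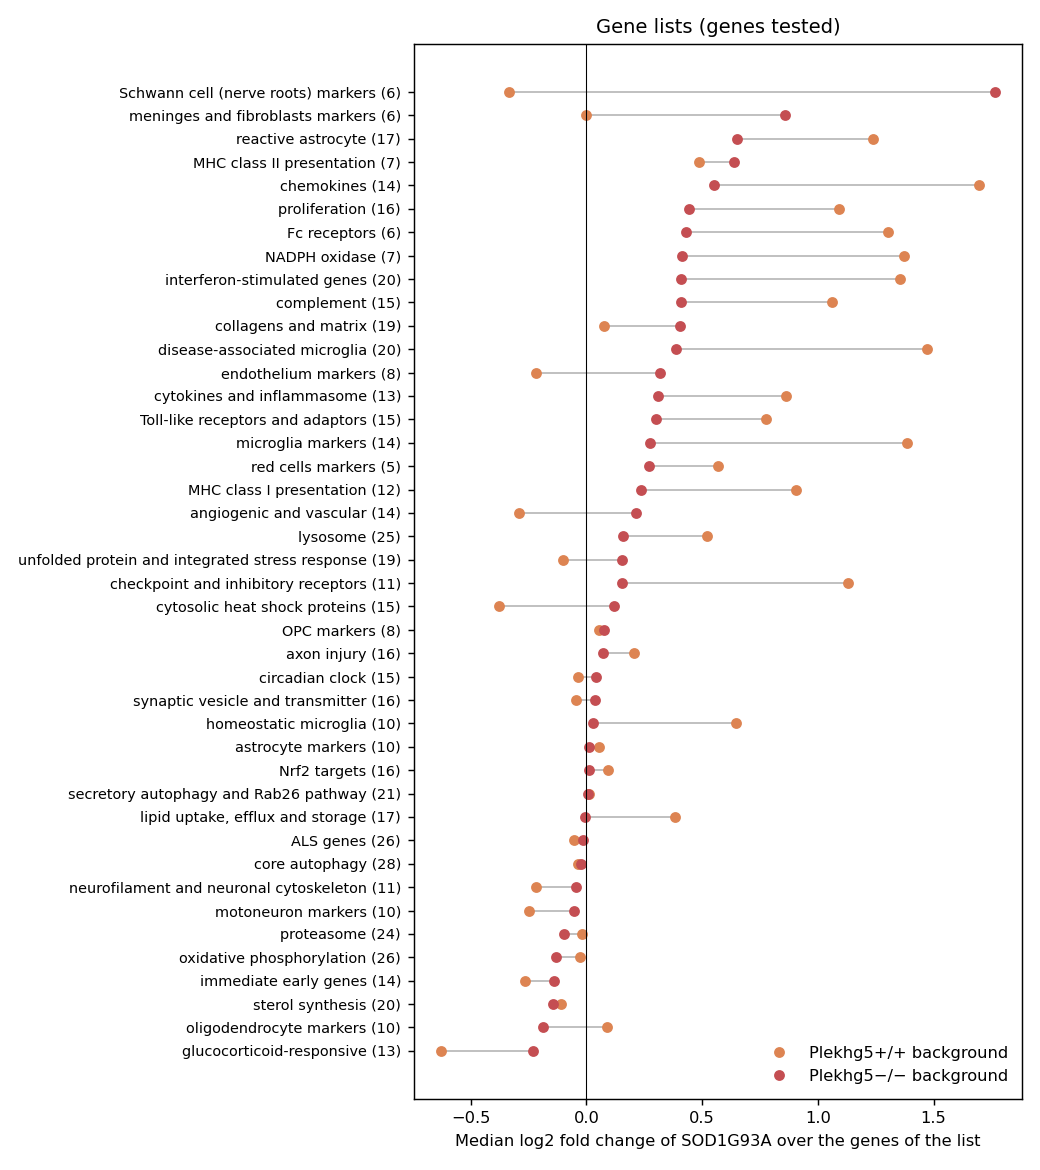
Median log2 fold change of SOD1G93A (x axis) over the tested genes of each of the 42 lists with 5 or more of them (y axis, number tested in brackets), without Plekhg5 (red) and with it (orange), joined by a line. The Schwann cell markers have the highest median without Plekhg5 (1.76) and -0.33 with it, while disease-associated microglia genes lie at 0.39 and 1.47.

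The transgene comparison in Plekhg5+/+ mice shares no library with the one above and gives a list of genes to look up. The list is not fully separate, because the spread behind its calls was estimated from all 12 libraries. Genes with little spread in Plekhg5-/- mice could be called more readily. The share without overlap given below is therefore a description and not an independent check. There edgeR called 498 genes (2.47%), of which 421 other than the transgene were higher. That list rests on the fit of all 12 libraries, since 4 and 2 genes were called without Plekhg5+/+ replicates 1 and 2. In Plekhg5-/- mice, 384 of these 421 (91.2%) had a positive log2 fold change, against 47.4% of the 19657 genes not called, and 183 (43.5%) were higher without overlap, against 6.45%. The median log2 fold change of the 421 was 0.27 without and 1.08 with Plekhg5, and 419 of them were smaller without it. Since the 421 were chosen for a large value in Plekhg5+/+ mice, their values there are high by that choice. Leaving out each of the 6 Plekhg5-/- libraries in turn gave a positive share of 83.6% to 92.9%. Of the 76 genes called lower in Plekhg5+/+ mice, 44 were negative without Plekhg5, with a median of -0.03 against -0.49.

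**Figure D4:**
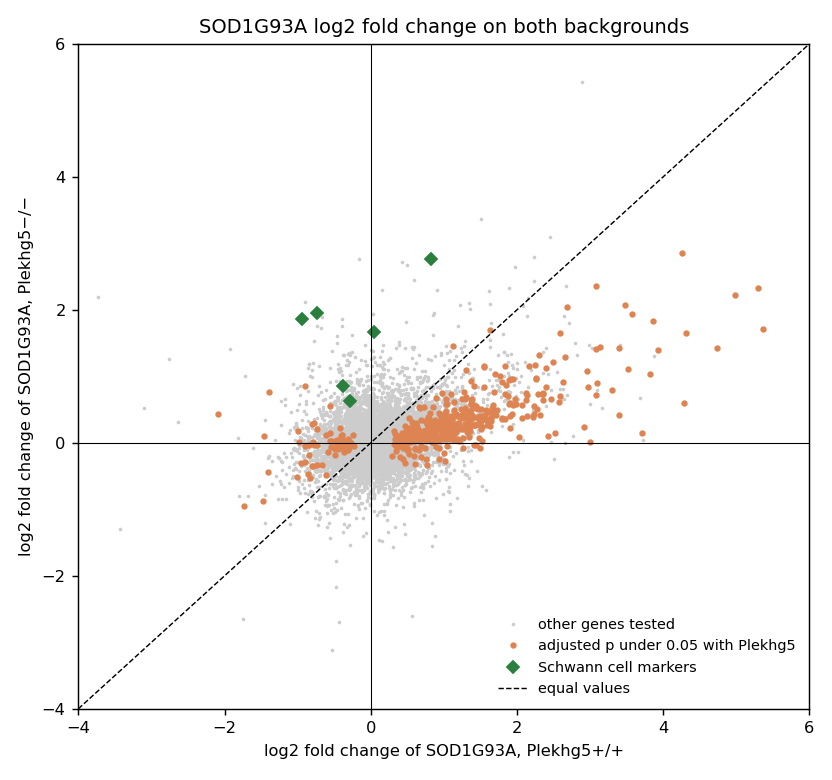
Log2 fold change of SOD1G93A in Plekhg5+/+ mice (x axis) and in Plekhg5-/- mice (y axis) for each tested gene other than the transgene (grey), with the 421 higher and 76 lower genes called in Plekhg5+/+ mice in orange and the 6 Schwann cell markers as green diamonds; 10 genes lie outside the axes. Most orange points on the right lie above 0 and under the dashed line of equal values, while the Schwann cell markers lie above it.

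Across the 20154 tested genes other than the transgene, the log2 fold changes of both backgrounds had a Pearson correlation of 0.372 and a Spearman correlation of 0.149. This is a description across genes, which are not independent. The test of the difference itself called 0 genes in edgeR, with 1824 (9.05%) at an unadjusted p under 0.05, and DESeq2 with the prior called 112. Of the lists, those of Schwann cells, fibroblasts, matrix, vessels and the endoplasmic reticulum stress response had a higher median without Plekhg5 than with it, and those of microglia, chemokines, complement, interferon and reactive astrocytes a lower one, as the plot of list medians shows. In the Schwann cell, vessel and stress lists, replicates 1 and 2 of the Plekhg5+/+ controls stood above replicate 3, which enters the medians with Plekhg5. For disease-associated microglia genes the median with Plekhg5 was 1.47, and 0.96 without the replicate 1 library of Plekhg5+/+ SOD1G93A. For reactive astrocyte genes these values were 1.24 and 0.75, so that the median in Plekhg5-/- mice, 0.65, was then close to that in Plekhg5+/+ mice. The edgeR count of 498 genes in Plekhg5+/+ mice was 223 without that library and 3 when only the 2 genotypes compared were fitted.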

How the data were processed

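Poly-A RNA from the spinal cords of 12 mice was measured. The authors trimmed the reads with Cutadapt version 2.4, mapped them with STAR version 2.7.2b to GRCm38.p6 plus human SOD1 cDNA, and assigned them by strand to RefSeq exons with featureCounts version 1.6.4, reads with several matches as fractions. The values deposited by the authors are therefore expected counts per gene, not normalized. They were rounded to whole numbers here, filtered with filterByExpr, normalized with TMM and fitted with edgeR version 4.0.16 (robust quasi-likelihood, 4 genotypes together, R version 4.3.3). P-values were adjusted by the Benjamini-Hochberg method over all genes tested. The p-values rest on the spread between 3 mice per genotype, estimated over the 4 genotypes together. Spread among Plekhg5+/+ mice therefore enters the comparison without Plekhg5. The spread within both Plekhg5-/- groups exceeded counting noise.

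Genes and the 46 lists were chosen with earlier results of these data known. The named genes are the targeted genes, the 12 higher and 12 lower genes of smallest p with at least 0.5 CPM and no overlap, and 2 to 4 members per list. Alternatives were DESeq2 version 1.42.0, other filters and scaling, a Y-linked covariate and left-out libraries, and leaving out the replicate 2 libraries of both genotypes was added after the data were seen. Plots were made with matplotlib version 3.10.9. Positions follow the deposited annotation. Some genes of the lists are not reported here and were left out of their lists.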

Additional observations from a re-analysis of the deposited data

How the results depend on the processing

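The count of 1 changed gene without Plekhg5 stayed at 1 with DESeq2's size factors in edgeR, no filter, unrounded counts, the Y-linked covariate, an adjusted p under 0.1 and without the replicate 2 library of both groups. It was 41 in DESeq2 with the prior, 45 without the prior (40 genes shared), 20 with only the compared genotypes fitted and 0 with at least 10 counts in every library, a filter that removes human SOD1 itself. With each library left out it ranged from 1 to 3; without Plekhg5-/- replicate 2, Igfbp7 and Col1a1 were called beside SOD1.

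With Plekhg5, the count of 498 became 1190 and 1159 in DESeq2 with and without the prior, 1145 at an adjusted p under 0.1 and 3 with only the compared genotypes, and ranged from 2 to 771 with a library left out (4 and 2 without Plekhg5+/+ replicates 1 and 2, 223 and 771 without Plekhg5+/+ SOD1G93A replicates 1 and 2). For the interaction the count of 0 became 112 and 95 in DESeq2, 1 with no filter, and ranged from 0 to 40, the latter without Plekhg5+/+ replicate 3. The causes were not tested.

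The replicate block gave 1, 631 and 0 genes. Same-numbered mice of both Plekhg5-/- groups had correlations of 0.135, 0.323 and -0.114 of their deviations, and mice with unlike numbers had -0.37 to 0.236. The replicate 2 mice, with 0.323, were also those with the most skeletal muscle transcripts in both groups. The labels do not say whether same-numbered mice share a batch, and this was not tested. Signs changed when a library was left out for Plekhg5 (-0.034 to 0.23), mouse Sod1 (-0.12 to 0.049), P2ry12 (-0.23 to 0.072), Chat (-0.13 to 0.015) and Acta1 (-2.28 to 0.96), while the other 90 of 95 named genes kept their sign in every alternative run. Of the 46 list medians, 32 did. The prior of DESeq2 shrinks fold changes, that of human SOD1 to 0.33. At 3 mice per group and the spread estimated over all 12 libraries, edgeR's interval of Prx ran from 0.80 to 3.11.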
